A study of Mus musculus with 18 samples.

Results

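The genes described here are those of the growth hormone and STAT5 axis in the mouse heart: the receptor gene Ghr, the kinase gene Jak2, the transcription factor genes Stat5a, Stat5b and Stat3, the inhibitor genes Cish, Socs1, Socs2 and Socs3, and the hormone target Igf1. They were chosen by name, as 10 of the 23457 genes in the deposited count table, and all 10 were also found in the table of FPKM (fragments per kilobase of transcript, scaled to the size of the library). Cish was the reason for the choice, because its level in the hearts given PLCβ1b and PLCβ1a differed from that in the blank hearts. The Cish levels of those contrasts are therefore described without a test. Only the contrast of PLCβ1b with PLCβ1a was tested for Cish, and the other members were tested in all 3 contrasts.

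RNA was sequenced from the hearts of 18 male C57BL/6 mice aged 17 weeks, 6 in each of 3 groups. All the mice had received the viral vector rAAV6 through the tail vein as adults, carrying FLAG-tagged PLCβ1b, FLAG-tagged PLCβ1a or, in the blank group, a promoter with no protein product. PLCβ1b is a splice variant of phospholipase Cβ1, the enzyme that acts below Gq-coupled receptors, and the study asked whether the weak contraction it causes is met by a response of transcription, with PLCβ1a as the control variant that leaves contraction unaltered. The labels name both ventricles as the tissue and the study's methods name the left ventricle. Each heart came from a separate mouse and is named here by its mouse number.

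Growth hormone binds its receptor on the cell surface, and the kinase JAK2 held by the receptor then phosphorylates STAT5A and STAT5B, which enter the nucleus and bind DNA at paired TTC and GAA half-sites. CISH and SOCS2 are induced by STAT5 and return to the receptor to dampen it, partly through a ubiquitin ligase built on the SOCS box, whereas SOCS3 is best known as the corresponding brake on STAT3 below the gp130 cytokines. In the heart, IGF1 is a growth factor for cardiomyocytes, and STAT3 and STAT5 are known for roles in protection against ischaemia.

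The promoter of Cish is shown because it holds the letters that STAT5 is known to bind and because Cish is the gene around which the family was gathered. The stretch printed is chr9:107296409-107296688, plus strand, 280 bases of the RefSeq promoter table on GRCm38.p6 (the mm10 build of the deposited files), and it ends just before the annotated start of Cish in the deposited annotation, chr9:107296689. Capitals mark the fixed letters of the motif TTCNNNGAA, which reads the same on both strands.

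Cish promoter: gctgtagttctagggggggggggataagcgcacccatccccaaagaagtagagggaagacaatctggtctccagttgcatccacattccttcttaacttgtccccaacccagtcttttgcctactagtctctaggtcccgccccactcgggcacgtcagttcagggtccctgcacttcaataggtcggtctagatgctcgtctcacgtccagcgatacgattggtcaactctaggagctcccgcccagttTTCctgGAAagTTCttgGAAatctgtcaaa

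The motif occurred at 2 places in the Cish window, 30 to 22 and 19 to 11 bases before the annotated start, without overlapping. The RefSeq start lies 30 bases upstream of the deposited one, so both copies stand after that start. Socs3, whose window is shown because it was the only other member window with the motif, held it at 1 place, 154 to 146 bases before its start, on the minus strand of chromosome 11.

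Socs3 site: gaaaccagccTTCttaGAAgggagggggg

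Of the 12 windows found for 9 members, 10 held no copy. Socs2 had no window in the table. Each window covers 250 bases before a RefSeq start to 50 bases after it, and 8.3% of all 32851 windows of this length held 1 copy or more, while 0.457% (150 windows) held 2 or more. A match describes the letters only, and none of the deposited files measures binding.

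In the blank hearts, the members spanned a wide range of levels per transcript length. Ghr stood highest at 28.9 ± 2.09 FPKM (SD, n = 6). Stat3 followed at 13.2 ± 1.22, and Cish was the third at 11.3 ± 1.52. Socs2 (8.31 ± 0.454), Stat5b (7.24 ± 0.269) and Jak2 (4.64 ± 0.461) came next, ahead of Stat5a (3 ± 0.717) and Igf1 (2.07 ± 0.136). Socs3 (0.622 ± 0.116) and Socs1 (0.197 ± 0.117) were lowest. The ranges of neighbours in this order did not overlap over the blank hearts, except those of Stat3 with Cish and of Stat5a with Igf1. Cish, an inhibitor of the axis, was thus more abundant per length than either STAT5 gene in the 6 blank hearts. In PLCβ1a hearts Cish took the fifth place at 6.16 ± 0.62 FPKM, below Socs2 and Stat5b and overlapping both. In PLCβ1b hearts Cish was the third again, at 7.94 ± 1.06, overlapping Stat5b.

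**Figure D1:**
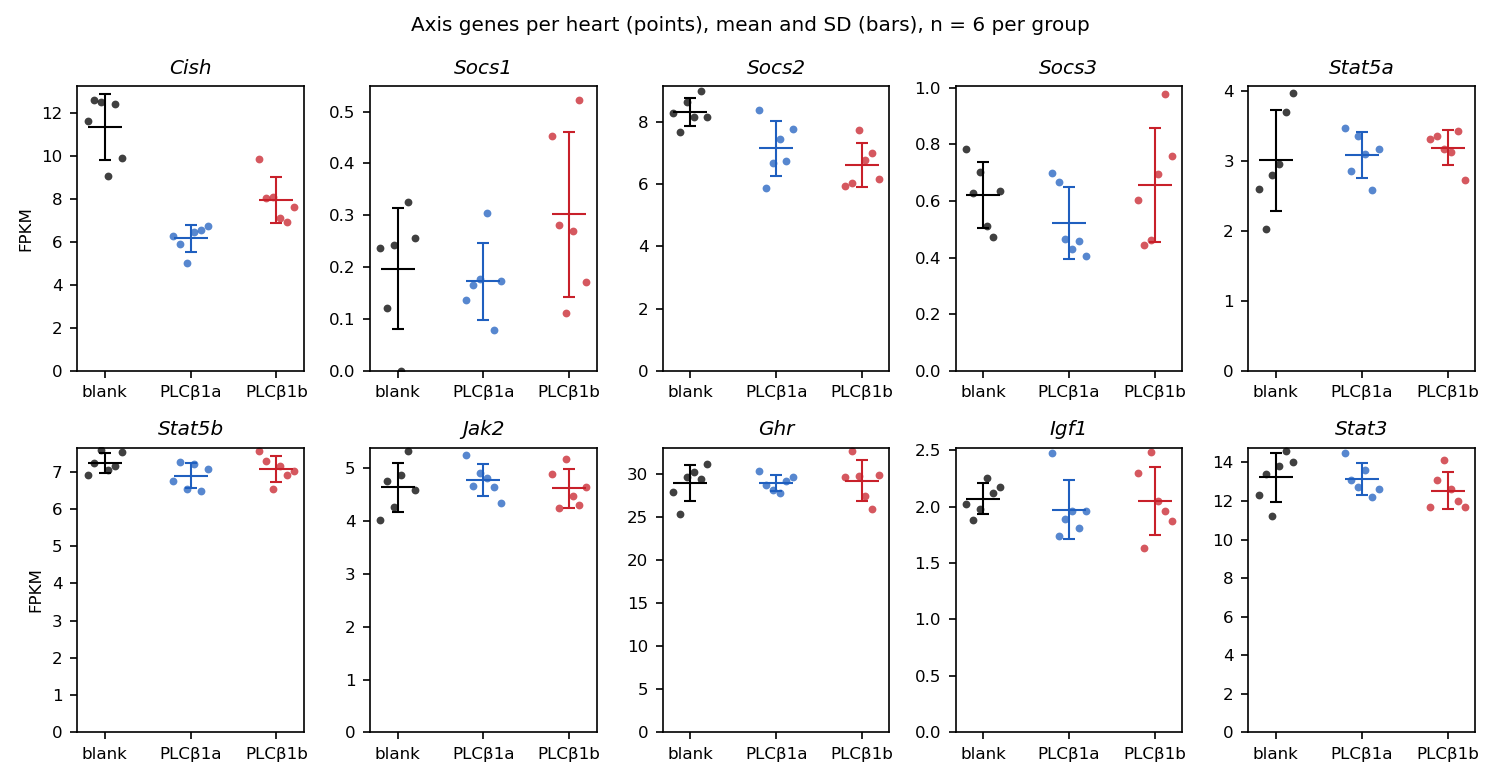
FPKM of each member (y axis, from 0, with its own scale for each gene) in the blank, PLCβ1a and PLCβ1b hearts (x axis), each point 1 heart and the bars the mean and SD of 6. Only Cish has a group that stands clear of the others, with PLCβ1a hearts at 5.03 to 6.74 and blank hearts at 9.04 to 12.6.

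Depth was similar across the groups. Total counts per heart ran from 13246339 to 24155465, of which 53.5 to 57.5% came from the mitochondrial rRNA gene mt-Rnr2. With all 37 mitochondrial genes left out, 3908354 to 7591558 counts per heart lay on nuclear genes. Plcb1, the gene delivered, was at 5.43 to 6.89 CPM (counts scaled to the size of the library, with TMM factors) in blank hearts, 17.8 to 29.3 in PLCβ1a hearts and 23.2 to 70 in PLCβ1b hearts, so every PLC heart lay above every blank heart. Read counts of the gene do not tell the 2 splice variants apart. Of the markers checked, the cardiomyocyte genes summed to 20950 to 22842 CPM in all hearts. Hepatocyte genes, listed because Ghr, Igf1 and the SOCS genes are abundant in liver, reached at most 0.381 CPM in sum. Mouse numbers ran from 26 to 36 in blank hearts, 7 to 21 in PLCβ1a hearts and 4 to 17 in PLCβ1b hearts, so whatever the numbering reflects cannot be told apart from the contrast with blank. Library numbers in the labels also ran in group order. Whatever that order reflects cannot be told apart from any contrast, PLCβ1b against PLCβ1a included.

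Cish encodes an inhibitor that is a direct target of STAT5. In the 6 blank hearts its lowest, median and highest levels were 15.8, 20.9 and 23.7 CPM. In PLCβ1a hearts they were 9.64, 11.2 and 13 CPM, and in PLCβ1b hearts 13.2, 14.1 and 16.8 CPM. All 6 PLCβ1a hearts lay below all blank hearts, and 5 of 6 PLCβ1b hearts did, the exception being heart 4 at 16.8 CPM. Separation of PLCβ1a from blank hearts, in either direction, was seen for 0.594% of all genes tested, and nothing is read from it here because this contrast chose the gene. The lowest blank hearts were 33 (15.8 CPM) and 36 (17.2 CPM). The log2 differences from blank were -0.84 for PLCβ1a and -0.48 for PLCβ1b, given as a description because they chose the gene. These values rest on 163 to 439 reads per heart. As the tissue was sequenced in bulk, fewer cells that hold a transcript and less of it in each cell cannot be told apart, for Cish or any other gene here.

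Between the 2 PLC groups, all 6 PLCβ1b hearts lay above all 6 PLCβ1a hearts in Cish CPM (13.2 to 16.8 against 9.64 to 13). Such a separation, in either direction, was seen for 0.179% of the 12281 genes tested. The log2 difference of PLCβ1b from PLCβ1a was 0.36 (SE 0.09, 95% interval 0.17 to 0.55), a level 1.28 times as high. The exact two-sided permutation test of log2 CPM gave p = 0.00216, the smallest value that the 924 arrangements of 6 against 6 hearts can give and the one that any complete separation gives. The PLCβ1a and PLCβ1b hearts of this test are also those whose difference from blank chose Cish, so the p-values here are not independent of the choice. In edgeR's quasi-likelihood test over all genes the unadjusted p was 0.000604, but the FDR (false discovery rate, Benjamini-Hochberg) was 0.801, past the 0.1 used in the study. That test called 0 of 12281 genes in this contrast (0%), with 543 genes (4.42%) at an unadjusted p under 0.05. DESeq2 called 1 gene (0.00814%), which was not Cish, and edgeR's exact test called 3 (0.0244%), Cish among them at an FDR of 0.0367.

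Socs2, which encodes the SOCS protein that restrains growth hormone signalling in the living animal, was the only other member with an unadjusted p under 0.05 in any contrast. Its lowest, median and highest levels were 12.5, 12.9 and 13.6 CPM in blank hearts, 9.34, 11.3 and 12.8 CPM in PLCβ1a hearts, and 8.98, 10.7 and 12.6 CPM in PLCβ1b hearts. In both PLC groups 5 of 6 hearts lay below every blank heart, the exceptions being PLCβ1a heart 7 (12.8 CPM) and PLCβ1b heart 16 (12.6 CPM). The blank hearts varied little, with an SD of 0.439 CPM, against 1.21 and 1.32 CPM in the PLCβ1a and PLCβ1b hearts.

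The log2 difference from blank was -0.28 for PLCβ1b (95% interval -0.43 to -0.12) and -0.20 for PLCβ1a (95% interval -0.35 to -0.05). Neither passed the threshold in edgeR's quasi-likelihood test, with an unadjusted p of 0.000752 and an FDR of 0.196 for PLCβ1b, and 0.0113 and 0.399 for PLCβ1a. With each of the 18 hearts left out in turn, the FDR of PLCβ1b against blank ran from 0.0978 to 0.525. The lowest came without PLCβ1b heart 16, the highest of its group in Socs2, at a difference of -0.33. Both contrasts use the same blank hearts. Between the PLC groups the Socs2 difference was -0.08 (95% interval -0.23 to 0.08, FDR 1), an interval that does not reach the 0.36 of Cish.

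Socs3, the inhibitor induced by STAT3, was weakly expressed, at 14 to 37 reads per heart. Its lowest, median and highest levels were 0.981, 1.42 and 1.79 CPM in blank hearts, 0.872, 1.09 and 1.53 in PLCβ1a hearts and 1, 1.45 and 2.32 in PLCβ1b hearts, and the 3 groups overlapped. The log2 difference was 0.10 for PLCβ1b against blank (95% interval -0.31 to 0.51), -0.20 for PLCβ1a against blank (-0.63 to 0.22) and 0.31 for PLCβ1b against PLCβ1a (-0.11 to 0.73). The last of these intervals takes in the Cish difference of 0.36, so a difference of that size in Socs3 could not be told from none. Its biological coefficient of variation between hearts was 0.162, above that of 94.9% of the genes tested.

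Socs1, an inhibitor that binds JAK kinases directly, had 0 to 10 reads per heart and did not pass the filter on low counts. Its median level was 0.224 CPM in blank hearts, 0.164 CPM in PLCβ1a hearts and 0.281 CPM in PLCβ1b hearts. Exact two-sided permutation tests of CPM, 6 hearts against 6, gave unadjusted p of 0.275 for PLCβ1b and 0.738 for PLCβ1a against blank, and 0.134 between the PLC groups. Blank heart 33 had 0 Socs1 reads, which allows up to 3 counts.

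Upstream of these inhibitors, the receptor and kinase transcripts overlapped among the groups. Ghr, the growth hormone receptor, ran from 74.3 to 88.3 CPM (median 78.6) in blank hearts, 78.8 to 88.5 (83.3) in PLCβ1a hearts and 74.5 to 87.9 (80.2) in PLCβ1b hearts. Its log2 difference from blank was 0.02 for PLCβ1b (95% interval -0.07 to 0.11) and 0.06 for PLCβ1a (-0.03 to 0.15), intervals that hold no change as large as that of Cish in either direction. Ghr counts take in the transcript of the soluble growth hormone-binding protein, which is spliced from the same gene. Jak2 ran from 18.7 to 22.9 CPM (median 20.2) in blank hearts, 19.1 to 23 (22.1) in PLCβ1a hearts and 19.7 to 22.5 (20.9) in PLCβ1b hearts. The differences were 0.02 (-0.09 to 0.14) and 0.07 (-0.04 to 0.19), in the same order.

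The ranges of the transcription factor genes overlapped among the groups as well. Stat5b, the more abundant of the pair per length, ran from 27.3 to 31.8 CPM (median 28.7) in blank hearts, 26 to 28.9 (28) in PLCβ1a hearts and 25.7 to 30.2 (29.1) in PLCβ1b hearts. Its log2 differences from blank were -0.02 for PLCβ1b (95% interval -0.12 to 0.08) and -0.06 for PLCβ1a (-0.16 to 0.04). Stat5a was more variable, at 5.89 to 10.7 CPM (median 7.98) in blank hearts, 7.71 to 9.98 (8.54) in PLCβ1a hearts and 7.72 to 10 (8.89) in PLCβ1b hearts, with differences of 0.09 (-0.12 to 0.29) and 0.06 (-0.15 to 0.26). Stat5a and Stat5b are near-identical neighbours on chromosome 11, and reads that match both may have been dropped or misplaced, so the ratio between them is uncertain. Stat3, the third STAT gene of that cluster, ran from 43.8 to 52 CPM (median 50.6) in blank hearts, 46.9 to 54.6 (50.8) in PLCβ1a hearts and 43 to 52.9 (48.6) in PLCβ1b hearts. Its differences were -0.04 (-0.14 to 0.06) and 0.03 (-0.06 to 0.13).

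Igf1, the growth factor that growth hormone induces through STAT5, is the classical readout of the axis in liver. It ran from 10.1 to 12.5 CPM (median 11.8) in blank hearts, 10.5 to 14.1 (11.4) in PLCβ1a hearts and 9.43 to 14.5 (12.2) in PLCβ1b hearts. The blank range lay within the range of the PLCβ1b hearts. Its log2 differences from blank were 0.06 for PLCβ1b (95% interval -0.11 to 0.23) and 0.03 for PLCβ1a (-0.14 to 0.19).

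Counted together, 0 of the 8 tested members other than Cish were called at an FDR below 0.1 by edgeR's quasi-likelihood test in PLCβ1b against blank, where 0.0977% of all genes were called (12 of 12281). In PLCβ1a against blank 0 of 8 were called, against 0.138% of all genes (17). At an unadjusted p under 0.05 it was 1 of 8 in each (Socs2), beside 7.41% and 8.58% of all genes. DESeq2 also called 0 of 8 in both contrasts, beside 0.195% and 0.187% of all genes, and so did edgeR's exact test, beside 0.252% and 0.415%. The median log2 difference of the 8 was 0.02 for PLCβ1b and 0.03 for PLCβ1a, and that of all genes tested was -0.001 and -0.002. With 200 genes changed in counts simulated for PLCβ1b against blank, the test recovered 54.5% of changes of 1.3-fold and 96.5% of changes of 2-fold. The Socs2 differences are smaller than the first of these. The 200 were drawn from all genes tested, so the rates do not describe genes with counts like those of the members. More genes changed than the 12 called here also makes the FDR threshold easier to pass, so the rates may be too high for these data.

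**Figure D2:**
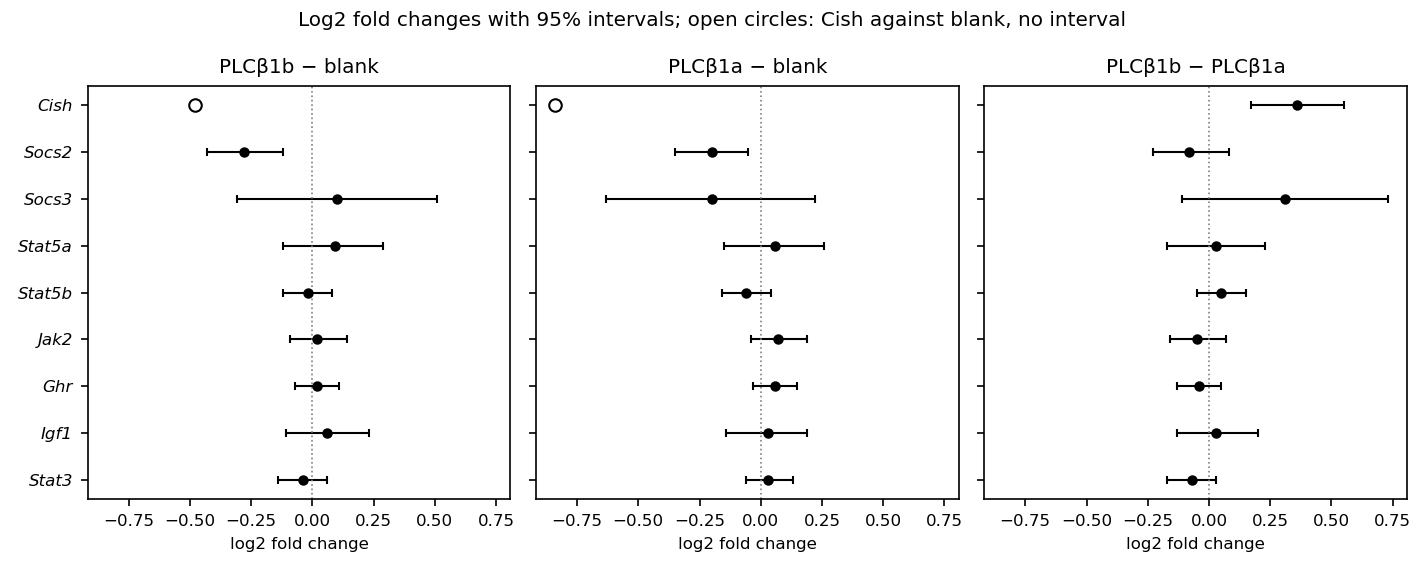
Log2 fold change (x axis) of each tested member (y axis) in the 3 contrasts, with 95% intervals from edgeR's quasi-likelihood fit of 18 hearts. The open circles give Cish against blank (-0.48 and -0.84) without an interval, the Socs2 intervals lie below 0 in both contrasts with blank, and of the intervals in the right panel only that of Cish (0.17 to 0.55) lies clear of 0.

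Wider lists of the pathway were examined by role, and edgeR's quasi-likelihood test called 0 genes at an FDR below 0.1 in any of the 10 lists and 3 contrasts. DESeq2 called 0 as well. edgeR's exact test called 1, Egr1 in PLCβ1a against blank, where it called 0.415% of all genes. The model with 1 surrogate variable called 1, Cblb in the same contrast, and its calls over all genes are given below. Neither call is read as a result about the lists. Among the other SOCS genes, Socs4, Socs5, Socs6 and Socs7, the log2 differences from blank lay between -0.06 and 0.04 in PLCβ1b hearts and between -0.13 and 0.05 in PLCβ1a hearts, with 0 of 4 at an unadjusted p under 0.05. The other JAK and STAT genes, of which 6 of 7 were tested, also had 0 at that level in each contrast. The ligands were barely present: of 19 cytokine and hormone genes only Ctf1 and Il15 passed the filter, and Gh and Prl, the genes of growth hormone and prolactin, had 0 reads in every heart. Of 19 cytokine receptor genes 13 were tested, and in PLCβ1b against blank 1 had an unadjusted p under 0.05, beside 7.41% of all genes. This was Lifr, the receptor chain for leukaemia inhibitory factor, at a log2 difference of -0.10 (FDR 0.575). In PLCβ1a against blank 0 of the 13 were at that level. Between the PLC groups 2 of the 13 were, both lower in PLCβ1b hearts, beside 4.42% of all genes.

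SOCS-box proteins act through a ubiquitin ligase of elongins, a cullin and a RING protein. All 7 genes listed as partners, Arih2 among them, had log2 differences below 0 in PLCβ1b against blank (median -0.07, beside -0.001 for all genes). In PLCβ1a against blank 6 of 7 did (median -0.08, beside -0.002), the exception being Arih2 at 0.08. Of the 7, 1 and 2 had an unadjusted p under 0.05, beside 7.41% and 8.58% of all genes. Tceb1, which encodes elongin C, ran from 12.6 to 15.6 CPM in blank hearts, 11.2 to 12.9 in those given PLCβ1a and 12.4 to 14.8 in PLCβ1b hearts. Its difference from blank was -0.22 in PLCβ1a hearts (FDR 0.256) and -0.10 in PLCβ1b hearts (FDR 0.794). The cullin gene Cul5 was at -0.09 in PLCβ1b hearts (FDR 0.634) and the RING gene Rbx1 at -0.16 in PLCβ1a hearts (FDR 0.474). The 2 contrasts share their blank hearts, so the similar signs are not independent of each other.

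Genes that STAT5 induces in other tissues showed no common direction. Of 14 tested, 8 had log2 differences above 0 and 6 below in PLCβ1b against blank, and 6 and 8 in PLCβ1a against blank. Bcl2l1, the gene of the survival protein BCL-XL, ran from 11.2 to 13.7 CPM in blank hearts, 9.7 to 13.6 in those given PLCβ1a and 9.07 to 12.2 in PLCβ1b hearts, a log2 difference of -0.27 for PLCβ1b (95% interval -0.43 to -0.10, FDR 0.348) and -0.12 for PLCβ1a (FDR 0.712). Egr1, an immediate early gene with many other inducers, had the largest difference of the list, 1.79 in PLCβ1a against blank (95% interval 0.18 to 3.40, FDR 0.518, and 0.0664 in edgeR's exact test), with PLCβ1a hearts from 4.29 to 64.1 CPM and blank hearts from 2.6 to 8.14. Bcl6, which STAT5 represses, had a log2 difference of 0.36 between PLCβ1b and PLCβ1a hearts (95% interval 0.08 to 0.64, FDR 1), and the kinase gene Pim1 one of 0.32 (0.03 to 0.61, FDR 1).

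In the IGF system, 10 of 13 tested genes had log2 differences above 0 in PLCβ1b against blank and 11 of 13 in PLCβ1a against blank, with medians of 0.08 and 0.07. The signs in these contrasts are not independent, as the blank hearts are the same. At an unadjusted p under 0.05 there were 0 for PLCβ1b, beside 7.41% of all genes. For PLCβ1a there were 1 higher and 1 lower, beside 8.58%. Igf1r, the receptor of IGF1, differed by 0.15 in PLCβ1a hearts (FDR 0.483). Igfals, whose product carries IGF1 in the circulation, differed by -0.38 in PLCβ1a hearts (FDR 0.563) and -0.36 in PLCβ1b hearts (FDR 0.681). Among 15 tested regulators of JAK and STAT signalling outside the SOCS family, the ubiquitin ligase gene Cblb differed by 0.27 in PLCβ1a hearts. Its FDR was 0.256, and 0.0996 with 1 surrogate variable. Ptpn2, a phosphatase of JAK kinases, differed by -0.22 in PLCβ1b hearts (FDR 0.519). Of 20 tested genes induced by STAT3, 11 had differences above 0 in PLCβ1b against blank and 5 in PLCβ1a against blank.

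**Figure D3:**
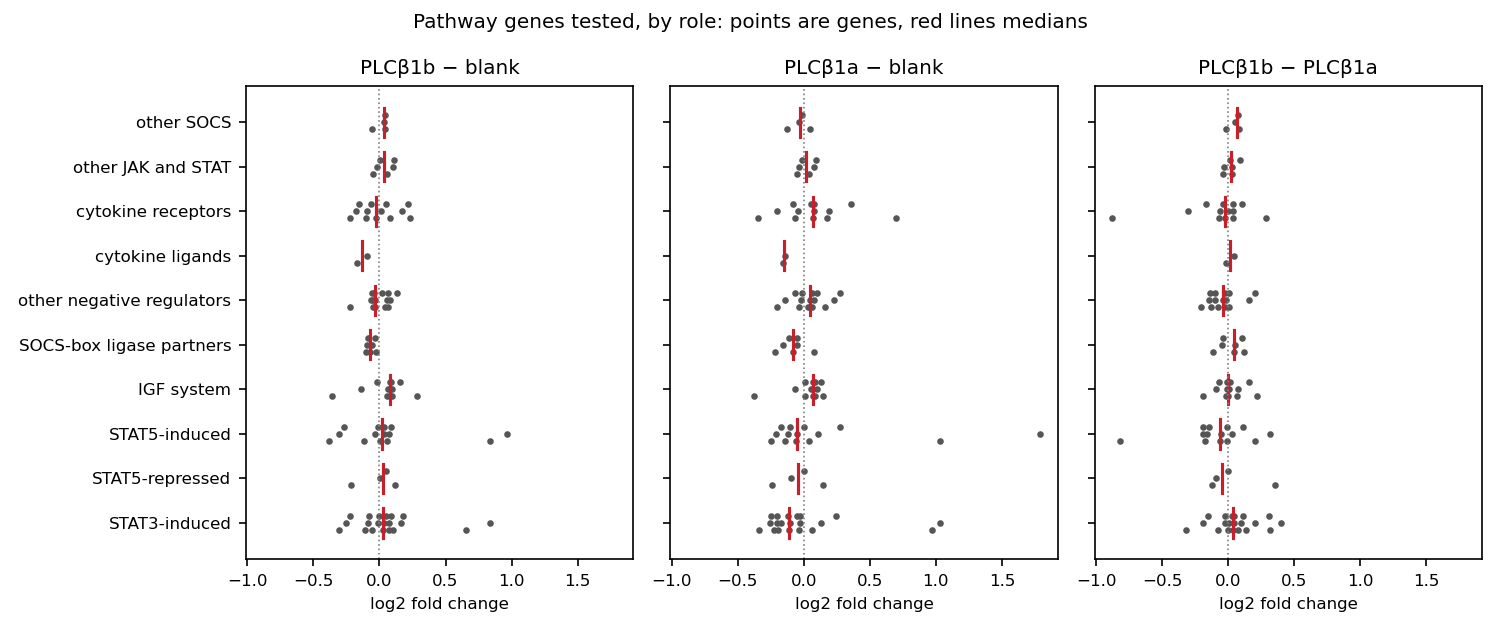
Log2 fold change (x axis) of every tested gene in the 10 pathway lists (y axis, points) in the 3 contrasts, with the list medians as red lines. The medians lie between -0.15 and 0.08, and the points far to the right include Egr1 at 1.79 in PLCβ1a against blank.

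Lists of other cell types and states were examined in the same contrasts, and their part in the Cish result was not tested. They share some genes with the pathway lists above, such as Egr1 and Fos, which are both immediate early and STAT5-induced genes. All 9 tested immediate early genes had log2 differences above 0 in both contrasts with blank (medians 0.65 for PLCβ1b and 0.97 for PLCβ1a). Both contrasts use the same blank hearts, and edgeR's quasi-likelihood test called 0 of these genes. At an unadjusted p under 0.05 there were 0 for PLCβ1b and 4 for PLCβ1a, beside 7.41% and 8.58% of all genes. edgeR's exact test called Egr2 in both, and Egr1 for PLCβ1a, beside 0.252% of all genes for PLCβ1b and 0.415% for PLCβ1a. Single hearts weighed heavily in these genes. Egr2 had a median of 1.14 CPM and a highest value of 10.4 CPM in PLCβ1a hearts, and 0.931 and 8.54 CPM in PLCβ1b hearts. Egr1 had a median of 10.5 CPM and a highest value of 64.1 CPM in PLCβ1a hearts. The summed level of the list was 36 to 82 CPM in blank hearts, 58.5 to 255 CPM in PLCβ1a hearts and 52.2 to 148 CPM in PLCβ1b hearts. Zbtb16, a glucocorticoid-induced gene, was at 43 to 81.5 CPM in blank hearts and lower in all PLCβ1a (31.4 to 42.8) and all PLCβ1b hearts (29.2 to 40.6), at FDRs of 0.256 and 0.188. Other fits called Zbtb16. The quasi-likelihood test without robust shrinkage did so in both contrasts (FDR 0.0209 for PLCβ1b and 0.0758 for PLCβ1a), as did edgeR's exact test (0.000705 and 0.00907), while DESeq2 (0.0217) and a model with 1 surrogate variable (0.0955) called it for PLCβ1b. Separation from blank in either direction was seen for 0.48% of all genes in the PLCβ1b contrast and for the share given above in the PLCβ1a contrast. Leukocyte markers summed to 71 to 85.5 CPM in blank hearts, 67.1 to 97.6 CPM in PLCβ1a hearts and 65.5 to 96.5 CPM in PLCβ1b hearts, and 0 of their 7 tested genes had an unadjusted p under 0.05 against blank. The T-cell gene Cd3e had 0 to 3 reads per heart.

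The members were also compared heart by heart, after the group mean had been taken from each log2 CPM value of the 18 hearts. None of the 45 pairs of members passed an adjusted p of 0.1 in permutation tests within groups, by Pearson's r or Spearman's rho. Jak2 and Stat3 had r = 0.593 and rho = 0.637 (unadjusted permutation p = 0.0106 and 0.00878, adjusted 0.369 and 0.368), and r fell to 0.488 when the 2 hearts farthest from the Jak2 median were dropped. Stat5b and Igf1 had r = -0.611 and rho = -0.509 (unadjusted permutation p = 0.0164 and 0.0444, adjusted 0.369 and 0.499), and r = -0.485 once the 2 farthest from the Stat5b median were dropped. Cish and Stat5a had r = -0.567 and rho = -0.571 (unadjusted permutation p = 0.0553 and 0.0307, adjusted 0.435 and 0.46). Cish and Socs2 showed no relation within the groups, with r = -0.0462 and rho = -0.0134 (unadjusted permutation p = 0.832 and 0.96). Values of 1 heart share a library and its scaling.

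**Figure D4:**
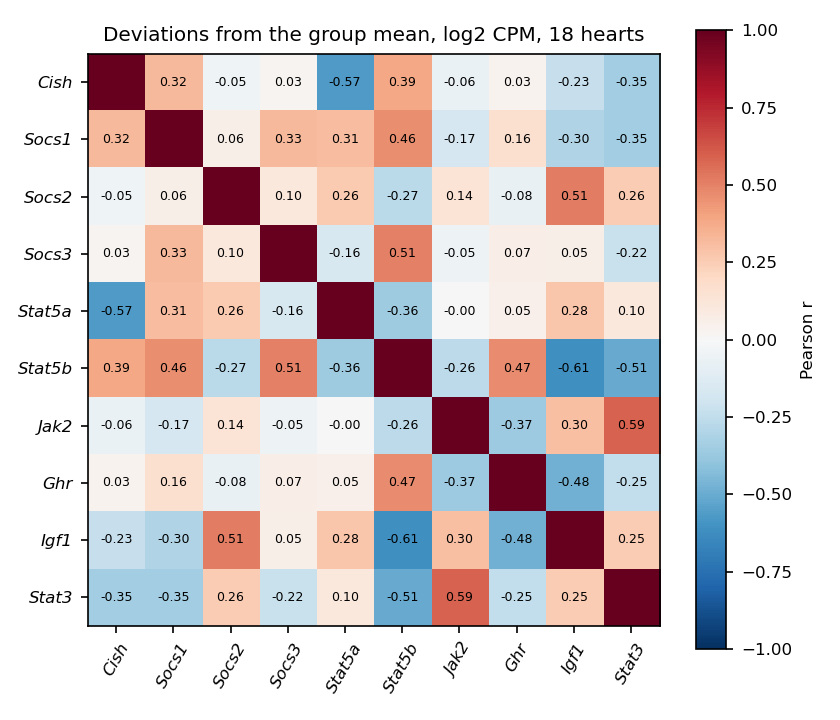
Pearson's r between members (rows and columns) over 18 hearts, computed on log2 CPM after each group's mean was removed, from -1 (blue) to 1 (red). The strongest cells are Stat5b with Igf1 (-0.61), Jak2 with Stat3 (0.59) and Cish with Stat5a (-0.57), while Cish with Socs2 is at -0.05.

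Over all 18 hearts with the group means kept, the 5 genes whose log2 CPM was most like that of Cish among 12280 others were Pisd-ps2 (r = 0.845), Rngtt (0.837), Gpr157 (0.807), Ptcd2 (0.786) and Tuba8 (0.773). The 5 most opposed were Ppp1r10 (-0.869), Garnl3 (-0.835), Hsd17b11 (-0.833), Zfp810 (-0.832) and Eml5 (-0.831). Socs2 was at rank 589 with r = 0.472. These values of r take in the differences from blank that chose Cish. Once the group means were removed, r was 0.656, 0.71, 0.51, 0.56 and 0.642 for the 5 most like Cish, in the order named. For the 5 most opposed it was then -0.755, -0.552, -0.713, -0.319 and -0.538. With the group means removed, Colq (r = 0.867), Slc25a36 (0.838), Dscr3 (0.81), Sqrdl (0.79) and Kremen1 (0.768) came first and Socs2 was at rank 6783. Pisd-ps2, at 14 to 37 reads per heart, and Garnl3, at 6 to 30, are low in counts. These are descriptions of likeness over 18 libraries, chosen from all genes tested, and carry no test.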

How the data were processed

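RNA depleted of ribosomal RNA was read in strand-specific pairs from 18 hearts, 6 per vector group as the sample labels give them. The authors aligned the reads to mm10 (TopHat2 2.0.10 in the submitters' processing notes) and the deposited counts are whole reads per gene from HTSeq in union mode with strand, without normalization. The deposited FPKM values come from a step that was not stated beyond the name of Cufflinks 2.1 in those notes, and they were used for levels between genes, for the plot of each gene by group and in alternative tests. The deposited annotation gave the coordinates. Names turned into dates by a spreadsheet (27 genes) were kept as they stand in the counts.

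TMM scaling preceded the quasi-likelihood F test of edgeR 4.0.16 (glmQLFit with robust shrinkage, glmQLFTest; R 4.3.3) in 1 model of the 3 groups. The robust option was chosen after seeing the data, and the fit without it is an alternative. filterByExpr (minimum count 10, minimum total 15, smallest group 6) left 12281 genes, and calls were made below an FDR of 0.1, the study's threshold, with Benjamini-Hochberg adjustment over all of them. CPM on the log2 scale had a prior count of 2. Intervals are 95% intervals. The p-values measure the spread between hearts of separate mice. Replicates were compared and none was a repeat of another: the lowest chi-square per degree of freedom within a group was 1.83. Pairs of members were tested with 1e+05 permutations of hearts within groups.

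The members and gene lists were chosen with earlier results of these data known. The genes named are the 10 members, up to 3 genes of lowest unadjusted p in each pathway list and contrast, 1 such gene in each marker, clock, glucocorticoid and immediate early list, and the 5 genes most like Cish each way. Gh, Prl and Cd3e were named after their values were seen. Alternatives were DESeq2 1.42.0, edgeR's exact test, limma 3.58.1 on log2 FPKM with 0.1 or 1 added, upper-quartile and DESeq2 scaling, no filter, a model of just the pair of groups, a surrogate variable (sva 3.50.0), mitochondrial genes (37) left out, an FDR below 0.05, and each heart left out. The study's own DESeq package was not used here. The scripts were tested on simulated counts. Other steps used Python 3.11.15, pandas 2.3.3, scipy 1.17.1 and matplotlib 3.10.9.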

Additional observations from a re-analysis of the deposited data

Results flagged for a closer look

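In 2 of the 30 groups of 6 hearts, 1 heart stood apart from the rest by Dixon's criterion, whose critical value for 6 hearts is 0.625, and chance gives about 1 such group in 20. Among the PLCβ1b hearts, heart 4 had the highest Cish level, 16.8 CPM, with the next at 14.5 CPM, a gap of 0.645 of the group's range. Without it the Cish difference of PLCβ1b from PLCβ1a was 0.31 on the log2 scale. In Stat5b, PLCβ1b heart 8 was lowest, at 25.7 CPM, with the next at 28.9 CPM, a gap of 0.71 of the range.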

How the results depend on the processing

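The Cish difference of PLCβ1b from PLCβ1a kept its sign in all alternatives run, at 0.32 to 0.36 under 12 other settings and 0.31 to 0.40 with each of 18 hearts left out. It was called by edgeR's exact test alone (0.36, FDR 0.0367), which made the count of members called in that contrast 1. The count of members other than Cish called in PLCβ1b against blank ran from 0 to 1 with each heart left out, the 1 being Socs2 without PLCβ1b heart 16, and was 0 under 12 other settings. Over those, the Socs2 difference lay between -0.33 and -0.27 with FDRs of 0.109 to 0.411. With each heart left out it lay between -0.33 and -0.23, the weakest without PLCβ1b heart 4, and the FDRs ran from 0.0978 to 0.525. CPM per kilobase of exon changed the rank of 2 members in blank hearts, Stat5b and Socs2. The number of related pairs of members ran from 0 to 2 with each heart left out, the 2 arising without PLCβ1b heart 6. The cause was not tested for any of these.

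Calls over all genes in PLCβ1b against blank, 12 here, were 24 with DESeq2, 31 with the exact test, 24 with no filter, 43 with 1 surrogate variable, 4 and 5 with limma at 0.1 and 1 added, and 2 to 18 with each heart left out. In PLCβ1a against blank, 17 here, they were 51 with the exact test, 29 with no filter, 48 with 1 surrogate variable, 10 with only the groups compared, 10 without robust shrinkage, 6 in both limma fits and 3 to 19 with each heart left out. Between the PLC groups, 0 here, they ran from 0 to 3, the 3 with the exact test. Socs1 and Socs3 had the fewest reads. CPM and FPKM of 1 gene were only loosely related for Ghr (Pearson's r = 0.364 over 18 hearts) and Stat5b (r = 0.559). The other 8 members had r of 0.766 to 0.985. No paired analysis was possible because the groups share no mouse numbers.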

Other observations

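Lists of other cell types and states were examined in the same fit, and edgeR's quasi-likelihood test with robust shrinkage called 0 of their genes in any contrast, whereas without it Zbtb16 of the glucocorticoid list was called in both contrasts with blank (FDR 0.0209 for PLCβ1b and 0.0758 for PLCβ1a). Lum, a matrix proteoglycan of fibroblasts, differed from blank by 0.23 on the log2 scale in both PLCβ1b and PLCβ1a hearts (FDR 0.235 and 0.256), and 6 and 5 of 7 fibroblast markers had differences above 0. Alas2, the erythroid enzyme of haem synthesis, was at 5.35 to 10.6 CPM in blank hearts and 9.13 to 15.6 CPM in PLCβ1a hearts (FDR 0.364, and 0.00907 in edgeR's exact test). Cdh5, the endothelial cadherin gene, differed from blank by 0.14 in PLCβ1b hearts (FDR 0.417). There 5 of 7 endothelial markers had differences above 0 and 2 below. At an unadjusted p under 0.05 there was 1 in each direction, beside 7.41% of all genes. Pdgfrb, a pericyte gene, differed by 0.17 in the same hearts (FDR 0.349), with 5 of 6 smooth muscle and pericyte markers above 0. Actc1, the cardiac actin gene, differed by -0.10 in PLCβ1b and -0.12 in PLCβ1a hearts (FDR 0.6 and 0.399), while the 8 cardiomyocyte markers had 3 differences above 0 and 5 below in PLCβ1b hearts and 4 each way in PLCβ1a hearts. The atrial gene Sln was lower in all 6 PLCβ1b hearts than in any blank heart, as 0.48% of all genes were separated in that contrast, at a log2 difference of -0.62 (FDR 0.748). Adipocyte genes summed to 101 to 138 CPM, nearly all of it Fabp4, so the sum describes that gene rather than the list. Of the 6 adipocyte genes 2 passed the filter on low counts. Skeletal muscle genes summed to 0.4 to 14.5 CPM, with no gene of that list tested.

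Of 14 tested clock genes 3 had differences above 0 in PLCβ1b against blank and 6 in PLCβ1a against blank. Npas2 differed by 0.79 in PLCβ1b hearts (FDR 0.565, and 0.031 with a surrogate variable) and by 0.09 in PLCβ1a hearts (FDR 0.967). Of 13 glucocorticoid and fasting genes, 6 and 5 had differences above 0. Beside Zbtb16, Fkbp5 was called for PLCβ1b with 1 surrogate variable (-0.46, FDR 0.0434) and Angptl4 for PLCβ1a in edgeR's exact test (0.92, FDR 0.0596), both named after their values were seen.

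Within each PLC group the Cish and Plcb1 levels were compared across 6 hearts by exact permutation. In PLCβ1a hearts r was 0.208 (p = 0.736) and rho -0.0857 (p = 0.919), with r of -0.306 once the 2 hearts farthest from the Plcb1 median were dropped. In PLCβ1b hearts r was 0.549 (p = 0.211) and rho 0.6 (p = 0.242), with r of 0.737 in the same reduced set. The adjusted p over these 2 relations were 0.736 and 0.422.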
